A study of Mus musculus with 9 samples.

Results

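The 10 genes described here encode the enzymes that build and desaturate fatty acids: Fasn, Acaca, Acly, Scd1, Scd2, Elovl6, Fads1, Fads2, Me1 and Acss2. They were taken by gene name and protein-coding biotype from the deposited table of 56748 genes, and each name matched 1 gene. RNA-Seq was performed on Hepa1-6 cells, a mouse hepatoma line, in 3 groups of 3 libraries. The control cells received no drug in the sample labels and vehicle in the paper, and the other groups received 37 µg/mL lefamulin or 37 µg/mL tiamulin for 2 days. Lefamulin and tiamulin are pleuromutilins, antibiotics that bind the bacterial ribosome. The sample labels and the paper name no engineered allele in these cells. The cells shared a medium with fetal bovine serum and penicillin-streptomycin, so every group was exposed to other antibiotics and to serum lipids. The comparisons ask what each drug changed in the hepatoma cells, and whether the drugs differed from each other.

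Fatty acid synthesis starts from cytosolic acetyl-CoA, which ATP citrate lyase makes from citrate exported by mitochondria and acetyl-CoA synthetase makes from acetate. Acetyl-CoA carboxylase turns acetyl-CoA into malonyl-CoA, and fatty acid synthase joins these units into palmitate with NADPH as the reductant. Elongases, stearoyl-CoA desaturases and the front-end desaturases then lengthen the chains and add double bonds, and in liver cells much of this pathway is under the transcription factors SREBP-1, LXR and ChREBP.

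The start regions of 4 members are shown because 3 of them, Acss2, Acly and Fads2, rose under both drugs, while Fasn, the synthase itself, did not pass the test. Each window runs from 250 bases before to 50 bases after the RefSeq start in GRCm38.p6, written on the strand of the gene. The windows are chr2:155517793-155518092 (plus strand) for Acss2, chr11:100527951-100528250 (minus strand) for Acly, chr19:10101454-10101753 (minus strand) for Fads2 and chr11:120824498-120824797 (minus strand) for Fasn. Capitals mark matches to the CCAAT box, searched as those letters, or to the GC box, searched as GGGCGG, on either strand.
Acss2: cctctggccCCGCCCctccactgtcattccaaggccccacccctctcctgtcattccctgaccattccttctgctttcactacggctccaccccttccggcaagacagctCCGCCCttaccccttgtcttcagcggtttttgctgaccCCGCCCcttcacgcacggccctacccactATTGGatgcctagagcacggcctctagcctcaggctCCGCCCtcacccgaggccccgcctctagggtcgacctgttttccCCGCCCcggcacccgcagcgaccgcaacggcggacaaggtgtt
Acly: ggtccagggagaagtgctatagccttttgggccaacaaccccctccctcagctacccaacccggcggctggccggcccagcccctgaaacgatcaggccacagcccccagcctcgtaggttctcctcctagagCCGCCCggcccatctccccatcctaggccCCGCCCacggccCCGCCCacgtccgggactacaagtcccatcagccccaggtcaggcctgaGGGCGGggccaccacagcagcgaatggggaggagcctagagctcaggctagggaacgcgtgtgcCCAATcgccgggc
Fads2: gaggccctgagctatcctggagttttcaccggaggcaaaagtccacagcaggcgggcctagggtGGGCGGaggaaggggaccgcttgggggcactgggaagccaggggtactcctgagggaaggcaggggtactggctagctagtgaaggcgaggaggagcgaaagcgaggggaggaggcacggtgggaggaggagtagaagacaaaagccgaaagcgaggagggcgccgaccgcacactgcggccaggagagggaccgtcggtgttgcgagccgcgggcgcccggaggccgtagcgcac
Fasn: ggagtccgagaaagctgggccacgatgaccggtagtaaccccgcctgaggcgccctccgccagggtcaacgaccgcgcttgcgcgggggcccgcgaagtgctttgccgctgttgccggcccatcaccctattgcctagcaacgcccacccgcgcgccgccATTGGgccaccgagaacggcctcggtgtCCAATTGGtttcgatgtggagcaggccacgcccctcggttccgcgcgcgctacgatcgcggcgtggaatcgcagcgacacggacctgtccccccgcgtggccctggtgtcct
Windows were found for 7 of the 10 members. The GC box letters were present 5 times in the window of Acss2, 4 times in that of Acly, once in that of Fads2 and 4 times in the first of 2 windows of Me1, and 35.7% of 32851 mouse windows of this length held them. The CCAAT letters were present 3 times in the window of Fasn, where a pair of matches shares bases, and once each in those of Acly, Acss2 and the second window of Me1, against 37.4% of all windows. The windows of Acaca and Elovl6 held neither. The sterol regulatory element core TCACNCCAC (1.24% of windows) and the E-box CACGTG (7.15%) were searched on both strands and were not in the windows of these 7 members. Scd1, Scd2 and Fads1 were not among the windows.

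Total counts per library lay between 15568887 and 18008105. Among 10 hepatocyte markers, Alb, Afp, Trf, Apob, Hnf4a, Krt8 and Krt18 were expressed, whereas Ttr and Apoa1 had at most 6 counts in any library and Serpina1a had 0. Of the 7 tested, 1 rose (Trf) and 2 fell (Alb and Hnf4a) under lefamulin, and 1 rose (Krt18) and 3 fell (Afp, Alb and Apob) under tiamulin by edgeR. These are 42.9% and 57.1% of the tested markers, against 13.1% and 16.4% of all tested genes. The largest of these changes was that of Afp under tiamulin, with a log2(fold change) of -0.81 (adjusted p = 5.45e-07 by edgeR). The summed FPKM of the 10 was 1726 to 1862 in the controls, 1664 to 1748 with lefamulin and 1786 to 2150 with tiamulin. Of 10 markers of other cell types, Adgre1 and Cd3e had 0 counts in all 9 libraries, and the summed FPKM of the 10 was 10.1 to 10.8 in the controls, 11.5 to 15.7 under lefamulin and 14.5 to 18.9 under tiamulin. In this list Cd68 was higher and Csf1r lower under both drugs by edgeR, 50% of the 4 tested beside the same shares of all genes, and the part of either marker list in the results below was not tested. In bulk RNA, fewer cells of a kind and less RNA per cell cannot be told apart. The library tiamulin 2 stood apart from the other tiamulin libraries, and its deviation from the group mean followed GC content across 9584 genes with a Spearman's rho of 0.71, against -0.56 and -0.599 in tiamulin 1 and tiamulin 3. Control 1 and control 2, which enter both comparisons with the drugs, deviated with GC content as well, with a rho of 0.523 and -0.512. Each deviation is from the mean of the library's own group of 3, so a library that departs one way shifts the others of its group the other way. The signs therefore do not show which library departed. The labels do not say whether the libraries of a group came from separate cultures, so p values measure the spread between these libraries, which may be technical.

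The enzymes spanned a wide range of levels. FPKM (fragments scaled to gene length and library total), as deposited, were used to compare genes. In the controls Scd2 was highest at 420 ± 8.16 FPKM (SD, n = 3), followed by Acly at 97.0 ± 5.03, Scd1 at 93.0 ± 2.17, Me1 at 87.7 ± 1.72, Fasn at 70.2 ± 7.48, Fads2 at 60.7 ± 2.00, Fads1 at 41.8 ± 0.713, Elovl6 at 23.7 ± 0.607, Acaca at 5.81 ± 0.162 and Acss2 at 0.858 ± 0.110 FPKM (each SD, n = 3). The control ranges of Acly and Scd1 overlapped, and those of the other neighbours in this order did not. FPKM divides by the deposited gene length, which was 17074 bases for Acaca, 10947 for Fasn, 10163 for Acss2 and 3295 to 6431 for the others. All other members had at least 1556 counts in each library, whereas Acss2 had 136 to 418.

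**Figure D1:**
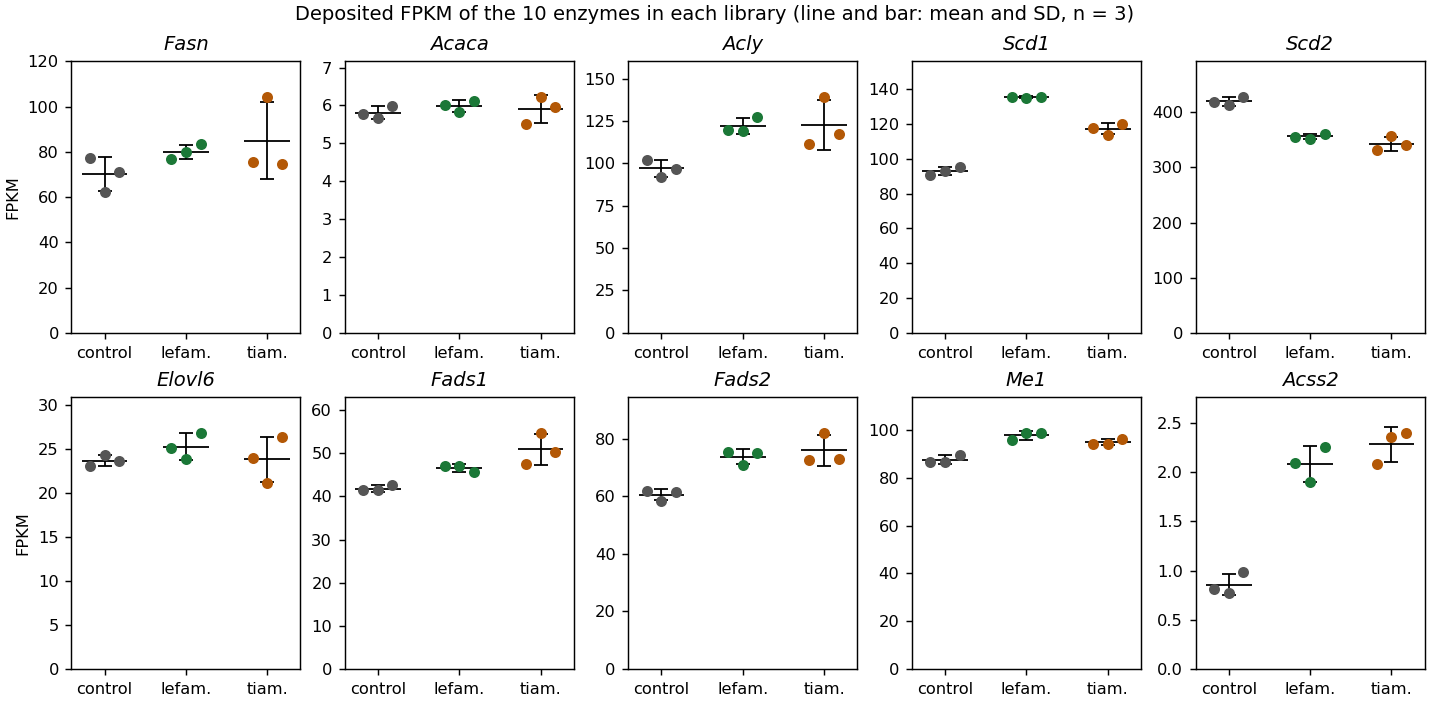
Each panel gives the deposited FPKM of 1 enzyme on a linear axis from 0, with 1 point per library, a line at the group mean and a bar for the SD of 3 libraries (lefam., lefamulin; tiam., tiamulin). Acss2 lies between 0.776 and 0.983 FPKM in the controls and at 1.90 or above in all 6 treated libraries, Scd2 is lower and Scd1 higher in every treated library, and the tiamulin point of Fasn at 104 FPKM is tiamulin 2.

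Against the controls, 5 of the 10 members rose and 1 fell under lefamulin, at an adjusted p value below 0.05 by the quasi-likelihood test of edgeR (Benjamini-Hochberg over 14510 tested genes). Among all tested genes, 7.09% rose and 6% fell. Without lefamulin 3, 3 members rose, and the 1900 genes called among all tested became 993 without control 3 and 3708 without tiamulin 2. Under tiamulin, 5 members again rose and 1 fell, where 9.08% of all tested genes rose and 7.34% fell. Acss2, Acly, Scd1 and Fads2 rose and Scd2 fell under both drugs, which were compared with the same 3 control libraries. Me1 passed under lefamulin and Fads1 under tiamulin. With the threshold of an absolute log2(fold change) above 1 added, Acss2 was the 1 member that qualified under each drug, where 1.51% and 1.78% of all tested genes did so under lefamulin and tiamulin. The median log2(fold change) of the members was 0.17 under lefamulin and 0.28 under tiamulin, and that of all tested genes 0.00 under both.

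**Figure D2:**
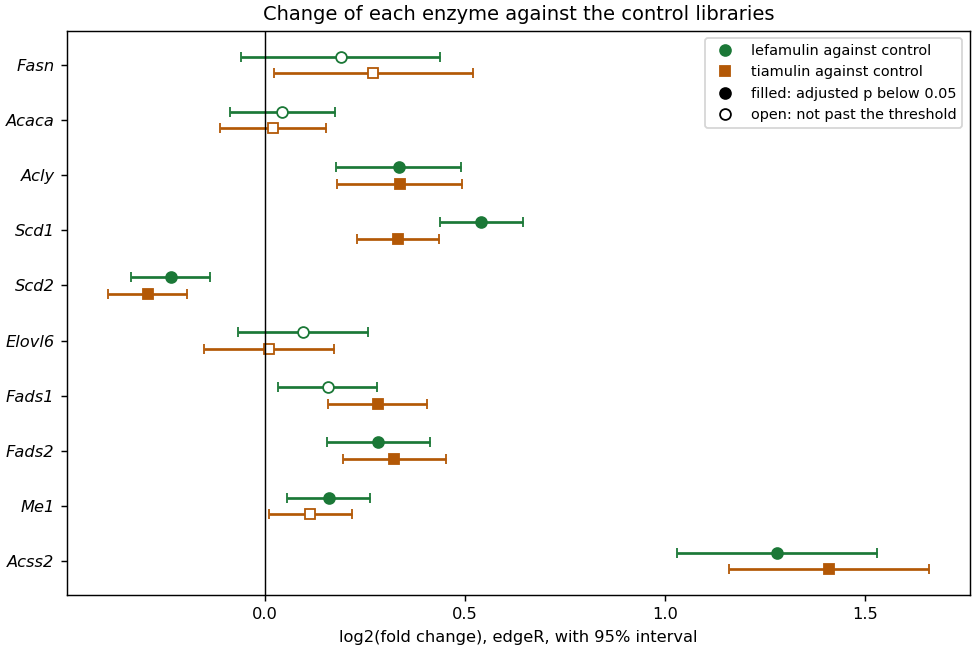
The horizontal axis gives the log2(fold change) against the controls from edgeR, with its 95% interval, for each of the 10 enzymes (circles, lefamulin; squares, tiamulin; filled, adjusted p below 0.05). Acss2 stands apart at 1.28 and 1.41, Scd2 is the enzyme below 0 under both drugs, and the intervals of Acaca and Elovl6 include 0.

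Among the enzymes that supply acetyl-CoA, Acss2 changed most. Acss2 (ENSMUSG00000027605, acetyl-CoA synthetase 2, which activates acetate in the cytosol and nucleus) had 0.814, 0.776 and 0.983 FPKM in the controls, 2.10, 1.90 and 2.26 with lefamulin and 2.08, 2.36 and 2.40 with tiamulin. All 6 treated libraries were above all 3 controls, and the lefamulin and tiamulin libraries overlapped. The counts behind these values were 144, 136 and 180 in the controls, 336, 322 and 377 with lefamulin and 351, 384 and 418 with tiamulin. The change was 2.43-fold under lefamulin (95% interval 2.04 to 2.89, log2(fold change) 1.28, SE 0.12, adjusted p = 6.93e-06 by edgeR) and 2.66-fold under tiamulin (2.24 to 3.16, log2(fold change) 1.41, SE 0.12, adjusted p = 1.9e-06). With limma on log2(FPKM + 1), a scale that compresses this low gene, the values were 0.73 and 0.82, with adjusted p = 0.00131 and 0.000532. Acss2 shares 4.03% of its 100-base windows with Acss2os and Ggt7, and the strand setting of the counting is not given in the sources used here. The windows of each member came from its longest protein-coding transcript, with 2832 for Acss2, whose deposited gene length is 10163 bases. Sharing over the rest of the deposited length was not examined for any member. Acss2os had at most 2 counts in any library, and Ggt7 had 118 to 167 counts in the controls and 79 to 112 under the drugs.

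Acly (ENSMUSG00000020917, ATP citrate lyase, the main source of cytosolic acetyl-CoA) stood at 102, 92.1 and 96.6 FPKM in the controls. It reached 119.9, 118.9 and 128 FPKM under lefamulin and 111, 139 and 117 FPKM under tiamulin, so that neither drug group overlapped the controls. The log2(fold change) was 0.33 under lefamulin (adjusted p = 0.00784, SE 0.07) and 0.34 under tiamulin (adjusted p = 0.00558, SE 0.07), a 1.26-fold rise in both. Without the library lefamulin 3, the change under lefamulin was 0.30 and no longer passed the test (adjusted p = 0.0515 by edgeR). Slc25a1, the mitochondrial citrate carrier that supplies the substrate of ATP citrate lyase, rose from 41.0 ± 1.89 FPKM (SD, n = 3) to 57.2 ± 1.07 under lefamulin and 55.9 ± 7.64 under tiamulin, with log2(fold change) values of 0.48 and 0.45 (adjusted p = 0.00127 and 0.0016 by edgeR).

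Me1 (ENSMUSG00000032418, cytosolic malic enzyme, a source of NADPH) had 86.7, 86.7 and 89.7 FPKM in the controls, 95.8, 98.8 and 99.0 with lefamulin and 94.4, 94.1 and 96.3 with tiamulin. Every treated library was above every control library, by a small margin. The log2(fold change) was 0.16 under lefamulin (adjusted p = 0.0421 by edgeR, SE 0.05) and 0.11 under tiamulin (adjusted p = 0.123, SE 0.05). Under tiamulin it was called in 3 of 19 alternatives, with GC and length offsets, with offsets and block, and without tiamulin 2. The call under lefamulin was lost in 7 of 9 leave-one-library-out fits, that is, without any one of the 3 controls, the 3 lefamulin libraries or tiamulin 1, with adjusted p values up to 0.153. Me1 shares 17.2% of its 100-base windows with other genes, among them the pseudogene Gm7049, which had 80 to 132 counts.

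The enzymes that commit and carry out synthesis did not pass the test. Acaca (ENSMUSG00000020532, acetyl-CoA carboxylase 1, the committed step) lay between 5.67 and 5.99 FPKM in the controls, 5.82 and 6.12 with lefamulin and 5.50 and 6.24 with tiamulin, and the 3 groups overlapped. For Acaca the log2(fold change) was 0.04 under lefamulin (95% interval -0.09 to 0.18) and 0.02 under tiamulin (-0.11 to 0.15), with adjusted p = 0.7 and 0.858 by edgeR. The processed pseudogene Gm5182, with 209 to 290 counts, shares 42.8% of the 100-base windows of Acaca, so its counts are uncertain.

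Fasn (ENSMUSG00000025153, fatty acid synthase) had 77.2, 62.3 and 71.0 FPKM in the controls, 77.0, 79.7 and 83.3 with lefamulin and 75.3, 104 and 74.7 with tiamulin. Control 1 overlapped both drug groups, and tiamulin 2 was far above the other 8 libraries. The log2(fold change) was 0.19 under lefamulin (95% interval -0.06 to 0.44, adjusted p = 0.316 by edgeR, SE 0.11) and 0.27 under tiamulin (0.02 to 0.52, adjusted p = 0.132, SE 0.11). Without tiamulin 2, the value under tiamulin was 0.10 (adjusted p = 0.433). Under lefamulin, leaving out 1 library gave values of 0.11 to 0.26 (adjusted p up to 0.61 by edgeR). In the controls, Fasn was highest in control 1 and lowest in control 2, whose deviations from the control mean followed GC content with opposite signs. The transcript of Fasn has a GC content of 57.9%, and 8.67% of 14242 tested genes have a higher one. When edgeR was given offsets for GC content and length, the log2(fold change) of Fasn became 0.27 under lefamulin (adjusted p = 5.27e-06) and 0.18 under tiamulin (adjusted p = 0.000593), so the call on Fasn depends on this choice. The part of GC content in these values was not tested.

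**Figure D3:**
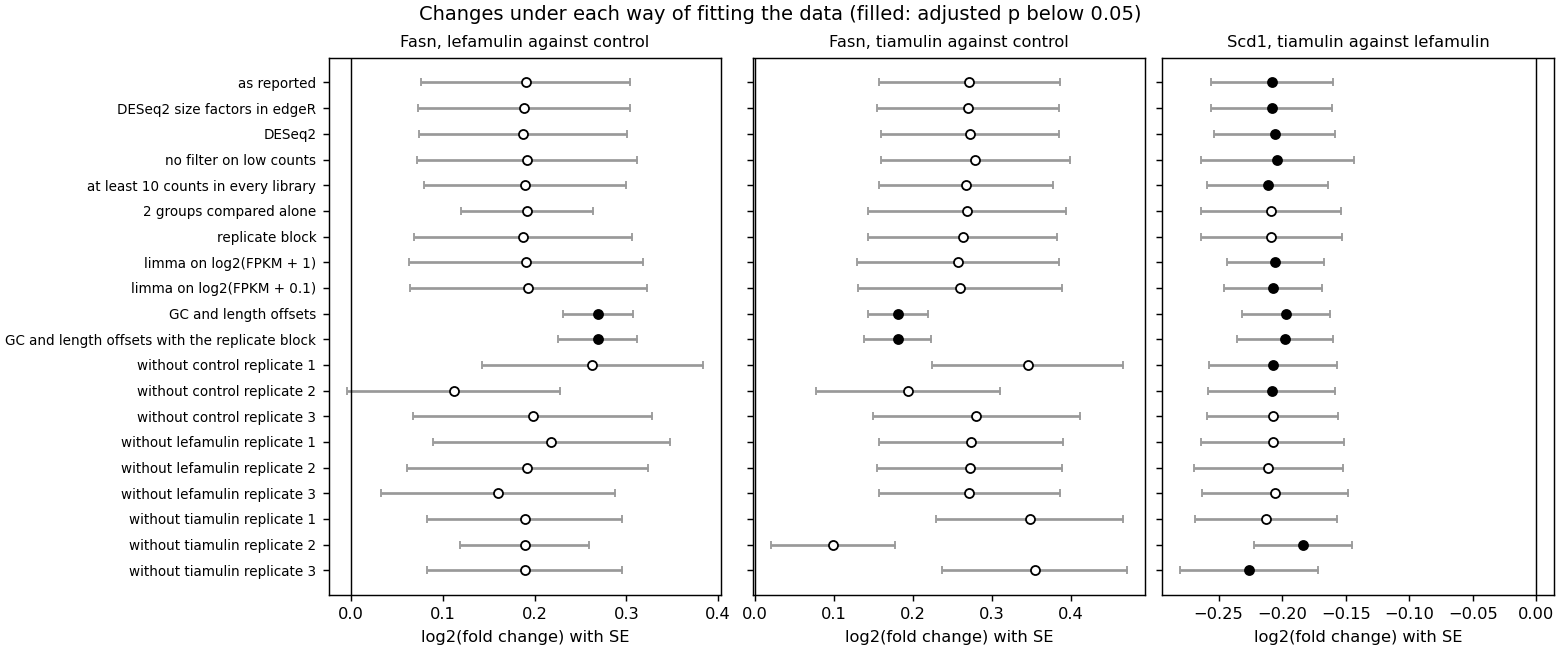
Each row is 1 way of fitting the data and the axis gives the log2(fold change) with its SE, for Fasn under each drug against the controls and for Scd1 under tiamulin against lefamulin (filled, adjusted p below 0.05). Fasn is filled under the GC and length offsets, with or without the replicate block, and the value of Scd1 stays between -0.23 and -0.18 while 7 of its 19 alternatives miss the threshold.

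Elovl6 (ENSMUSG00000041220, the elongase that takes palmitate to stearate) had 23.1, 24.3 and 23.7 FPKM in the controls, 25.1, 23.9 and 26.9 with lefamulin and 24.0, 21.2 and 26.4 with tiamulin, and the groups overlapped. Its log2(fold change) was 0.10 under lefamulin (95% interval -0.07 to 0.26, adjusted p = 0.451 by edgeR) and 0.01 under tiamulin (-0.15 to 0.17, adjusted p = 0.95). When a library was left out, the value under lefamulin lay between 0.05 and 0.14.

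The stearoyl-CoA desaturases, which put the first double bond into palmitate and stearate, moved in opposite directions. Scd1 (ENSMUSG00000037071, the main isoform of adult mouse liver) had 91.0, 92.7 and 95.3 FPKM in the controls, 135.3, 134.7 and 135.8 with lefamulin and 118, 114 and 120.0 with tiamulin. The 3 groups did not overlap, with the controls lowest and lefamulin highest. The log2(fold change) was 0.54 under lefamulin (adjusted p = 5.12e-06 by edgeR, SE 0.05), a 1.46-fold rise, and 0.33 under tiamulin (adjusted p = 0.000276, SE 0.05), a 1.26-fold rise. Scd2 (ENSMUSG00000025203, an isoform best known from brain and from liver around birth) had 418, 412 and 428 FPKM in the controls, 356, 351 and 361 with lefamulin and 331, 357 and 340.0 with tiamulin. All 6 treated libraries were below the controls. Its log2(fold change) was -0.24 under lefamulin (adjusted p = 0.00367, SE 0.05) and -0.29 under tiamulin (adjusted p = 0.000544 by edgeR, SE 0.05), a fall to 0.850 and 0.816 of the control. Both calls on both genes were kept in all 19 alternative fits against the controls. Scd1 and its paralogs share 2.66% of its 100-base windows, and Scd2 0.896% of its own.

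Per library, Scd2 exceeded Scd1 by 4.60, 4.45 and 4.50 times in FPKM in the controls, 2.63, 2.61 and 2.66 times under lefamulin and 2.81, 3.13 and 2.83 times under tiamulin. The drug groups lay below the controls, and the ratio of tiamulin 2 was the highest among the treated libraries. The summed FPKM of both genes was 513 ± 9.83 (SD, n = 3) in the controls, 491 ± 5.58 under lefamulin and 460 ± 11.1 under tiamulin. Scd2 made up 46.6% ± 0.517 of the summed FPKM of the 10 enzymes in the controls, 37.7% ± 0.166 under lefamulin and 37.2% ± 0.546 under tiamulin (SD, n = 3). The sum over all 10 enzymes was 900.4 ± 20.8, 945 ± 15.6 and 921 ± 48.8 FPKM in the same order. These ratios and sums are descriptions of genes already tested one by one.

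**Figure D4:**
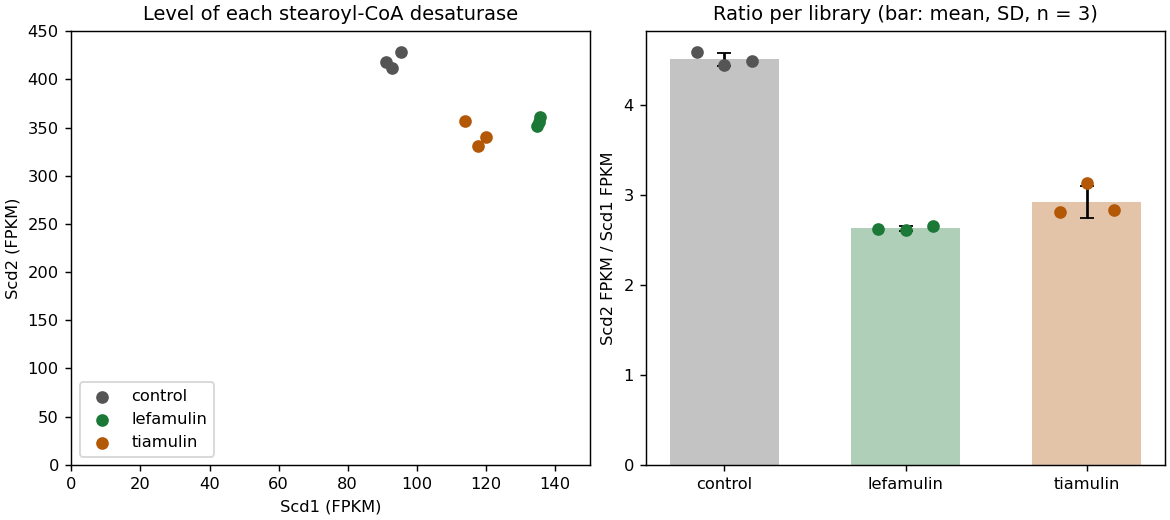
The left panel places each library by its Scd1 (horizontal) and Scd2 (vertical) level in FPKM, and the right panel gives the ratio of Scd2 to Scd1 FPKM per library, with bars for the mean and SD of 3 libraries from 0. The control libraries have ratios of 4.45 to 4.60, the lefamulin libraries 2.61 to 2.66 and the tiamulin libraries 2.81 to 3.13.

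Fads1 and Fads2, the front-end desaturases that make polyunsaturated fatty acids from dietary precursors, were higher in every treated library. Fads2 (ENSMUSG00000024665, the first desaturation of this route) had 62.1, 58.4 and 61.6 FPKM in the controls, 75.6, 70.8 and 75.0 with lefamulin and 72.7, 82.2 and 73.1 with tiamulin. Neither drug group overlapped the controls. It rose with a log2(fold change) of 0.28 (adjusted p = 0.00628, SE 0.06) under lefamulin and 0.32 (adjusted p = 0.00189, SE 0.06) under tiamulin by edgeR. Fads1 (ENSMUSG00000010663, the later desaturation) had 41.4, 41.4 and 42.7 FPKM in the controls, 47.1, 47.2 and 45.6 with lefamulin and 47.6, 54.8 and 50.3 with tiamulin. These groups did not overlap in any pair. Fads1 rose under tiamulin, with a log2(fold change) of 0.28 (adjusted p = 0.00375 by edgeR, SE 0.06). Under lefamulin its value was 0.16 (95% interval 0.03 to 0.28, adjusted p = 0.0875, SE 0.06), and it passed in 4 of 19 alternative fits, including the one without tiamulin 2 (adjusted p = 0.00504).

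The drugs were then compared directly at the same dose and time. Scd1 was lower under tiamulin than under lefamulin, with a log2(fold change) of -0.21 (95% interval -0.31 to -0.11, adjusted p = 0.024 by edgeR, SE 0.05). It was the only member to pass. Among all tested genes 2.85% were higher and 2.05% lower under tiamulin, and 0.227% also passed the threshold of 1. The adjusted p value of Scd1 rose above 0.05 in 5 of 9 leave-one-library-out fits, without control 3, any one of the lefamulin libraries or tiamulin 1, and reached at most 0.109. No member was called higher under tiamulin by edgeR or by DESeq2, and 1, Fads1, was higher at an unadjusted p below 0.05. The 95% interval of the difference was 0.00 to 0.25 for Fads1, -0.10 to 0.36 for Acss2, -0.16 to 0.04 for Scd2, -0.15 to 0.16 for Acly, -0.09 to 0.17 for Fads2, -0.15 to 0.06 for Me1, -0.25 to 0.08 for Elovl6, -0.15 to 0.11 for Acaca and -0.17 to 0.33 for Fasn. A p value above the threshold does not show that the drugs acted alike on these genes. Lefamulin and tiamulin share the pleuromutilin core and differ in the side chain.

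The other genes of the pathway were read from lists, beside the share of all tested genes called in either direction, 13.1% under lefamulin and 16.4% under tiamulin. Of 23 tested regulators of lipogenic transcription, 3 rose and 2 fell under each drug, a share of 21.7% called, and the median log2(fold change) was -0.01 and -0.02. Srebf1, which encodes SREBP-1, the main activator of these enzymes, fell from 30.9 ± 3.65 FPKM (SD, n = 3) to 21.0 ± 0.489 under lefamulin and 22.5 ± 5.12 under tiamulin. The log2(fold change) of Srebf1 was -0.56 (adjusted p = 0.0114) and -0.46 (adjusted p = 0.0249 by edgeR). The call under tiamulin was lost without control 1, control 3, tiamulin 1 or tiamulin 3 (adjusted p up to 0.089). It was also lost when the 2 groups were compared alone and in both limma fits, and was kept in 12 of 19 alternatives. Insig1, the endoplasmic reticulum protein that holds SREBP back and is itself an SREBP target, rose from 18.4 ± 0.0305 FPKM to 30.2 ± 1.22 and 25.6 ± 1.8 (SD, n = 3), with log2(fold change) values of 0.72 (adjusted p = 8.03e-06) and 0.47 (adjusted p = 0.000244 by edgeR).

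Srebf2, the sister gene best known for cholesterol synthesis, had log2(fold change) values of -0.09 and 0.14 and did not pass (adjusted p = 0.605 and 0.373 by edgeR). Mlxipl, which encodes ChREBP, was low at 24 to 46 counts per library, and Nr1h3, which encodes LXR alpha, had 49 to 85 counts. Neither passed under either drug, with adjusted p values between 0.387 and 0.973. Prkaa1, a catalytic subunit of the energy-sensing kinase AMPK at 37.4 FPKM in the controls, did not pass, at -0.09 and -0.21 (adjusted p = 0.418 and 0.0512 by edgeR). Prkaa2, the other catalytic subunit at 1.88 FPKM in the controls, rose under both drugs by 0.58 and 0.63 on the log2 scale (adjusted p = 0.00306 and 0.00119 by edgeR). Pparg, a lipid-sensing nuclear receptor, also passed under both, at 0.44 and 0.39 (adjusted p = 0.0249 and 0.0372), but lost the call in 4 and 7 of 9 leave-one-library-out fits (under lefamulin without control 2, control 3, lefamulin 1 or lefamulin 2, and under tiamulin in all but those without control 1 or lefamulin 3), with adjusted p values up to 0.109 and 0.139. Mbtps1, a protease that releases SREBP, fell under lefamulin, with a log2(fold change) of -0.33 (adjusted p = 0.0166). Its value under tiamulin was -0.21 (adjusted p = 0.0924), and -0.33 to -0.14 when a library was left out. Under tiamulin it was called in 4 of 19 alternatives, with no filter, with GC and length offsets, with offsets and block, and without tiamulin 2 (adjusted p = 2.43e-05). Sirt1, a deacetylase, fell under tiamulin at -0.33 (adjusted p = 0.0389 by edgeR), and its value under lefamulin was -0.02 (adjusted p = 0.916). Tested directly between the drugs, Sirt1 did not pass (-0.31, adjusted p = 0.0966 by edgeR). The call on Mbtps1 was lost without control 1, control 3, lefamulin 1 or lefamulin 2 (adjusted p up to 0.0908), and that on Sirt1 without control 1, control 2, lefamulin 2, lefamulin 3 or tiamulin 1 (adjusted p up to 0.185). Leaving out 1 library moved the 5 calls in this list to between 3 and 8 under each drug, with 8 without tiamulin 2.

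Among 19 tested genes for the supply of acetyl-CoA, malonyl-CoA and NADPH, 3 rose and 1 fell under lefamulin, and 4 rose and 2 fell under tiamulin. These are shares of 21.1% and 31.6%, against 13.1% and 16.4% of all tested genes. Besides Slc25a1, Acat2, a cytosolic thiolase that condenses acetyl-CoA towards sterols, rose from 13.0 ± 0.133 FPKM (SD, n = 3) to 23.1 ± 1.09 and 23.0 ± 1.45, with log2(fold change) values of 0.83 and 0.82 (adjusted p = 5.43e-06 and 4.11e-06 by edgeR). Cs, the mitochondrial citrate synthase, passed at 0.19 and 0.27 (adjusted p = 0.0151 and 0.000932). Its call under lefamulin was lost in 6 of 9 leave-one-library-out fits, without any one of the controls or lefamulin libraries, with adjusted p values up to 0.0833. Dlat, a subunit of pyruvate dehydrogenase, passed under tiamulin at 0.19 (adjusted p = 0.0384) and lost the call in 7 of 9 leave-one-library-out fits, all but those without lefamulin 1 or tiamulin 2 (adjusted p up to 0.15). Mthfd1, a folate enzyme that yields NADPH, fell under both drugs at -0.30 and -0.36 (adjusted p = 0.0168 and 0.00481), and Me2, the mitochondrial malic enzyme, fell under tiamulin at -0.55 (adjusted p = 0.000552 by edgeR). The call on Mthfd1 under lefamulin was lost without control 1, control 2, lefamulin 2 or lefamulin 3 (adjusted p up to 0.0947). In this list the 4 calls under lefamulin became 2 without any of these 4 libraries and 8 without tiamulin 2.

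Of 17 tested genes for elongation and other desaturation, 5 rose and 2 fell under lefamulin and 2 rose and 2 fell under tiamulin. The shares called were 41.2% and 23.5%, where 13.1% and 16.4% of all tested genes were. Fads6 and Fads3, desaturase-family genes, rose under both drugs, with log2(fold change) values of 0.58 and 0.43 for Fads6 (adjusted p = 1.09e-05 and 0.000129 by edgeR) and 0.23 and 0.41 for Fads3 (adjusted p = 0.0471 and 0.00122). Of the 9 leave-one-library-out fits, those without tiamulin 1 or tiamulin 2 kept the call on Fads3 under lefamulin (adjusted p up to 0.166 in the others). Over all 19 alternatives it was called in 8, and it was also lost with DESeq2 size factors, the replicate block and both limma fits. Elovl1, Cyb5b and Hacd1 were the others that rose under lefamulin, and Elovl1 lost the call without control 2, control 3, lefamulin 1 or lefamulin 2 (adjusted p up to 0.0942). Hacd2, a dehydratase of the elongation cycle, fell from 16.3 ± 0.787 FPKM (SD, n = 3) to 12.3 ± 0.368 and 10.1 ± 1.2, at -0.41 and -0.70 (adjusted p = 0.00625 and 8.07e-05). Elovl2, an elongase of very long polyunsaturated chains with 40 to 149 counts per library, fell under tiamulin at -1.13 (adjusted p = 0.000911 by edgeR, SE 0.19), and its value under lefamulin was -0.29 (adjusted p = 0.332). With limma on log2(FPKM + 1) the value under tiamulin was -0.66. Hacd4 and Hacd1, with at most 37 and 64 counts per library, passed under lefamulin at -0.997 and 0.941 (adjusted p = 0.0429 and 0.0347), and lost the call in 6 and 4 of 9 leave-one-library-out fits, with adjusted p values up to 0.152 and 0.146. For Hacd4 these were the fits without any one control or lefamulin library, and for Hacd1 those without control 2, control 3, lefamulin 1 or lefamulin 3. The 7 calls of this list under lefamulin became 3 to 4 without control 2, control 3 or any one lefamulin library.

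Among 22 tested genes of acyl-CoA and triglyceride synthesis, 4 rose and 0 fell under lefamulin, and 4 rose and 2 fell under tiamulin. This was 18.2% and 27.3% of the list, beside 13.1% and 16.4% of all tested genes, and 6% of all tested genes fell under lefamulin. At an unadjusted p below 0.05, 1 of these genes was lower under lefamulin, and DESeq2 called 1 lower. Dgat2, which completes triglycerides, rose from 0.892 ± 0.0676 FPKM (SD, n = 3) to 2.07 ± 0.352 under lefamulin and 1.46 ± 0.0978 under tiamulin, with log2(fold change) values of 1.21 and 0.70 (adjusted p = 0.000421 and 0.0161 by edgeR). With limma on log2(FPKM + 1) these values were 0.69 and 0.38, so Dgat2 was no longer above 1. Its call under tiamulin was lost without control 1 or tiamulin 1, with adjusted p values up to 0.0615. Lpin2, a phosphatidate phosphatase, rose at 0.41 and 0.61 (adjusted p = 0.000154 and 3.54e-06). Acsl3, an acyl-CoA synthetase of lipid droplets, rose under lefamulin at 0.44 (adjusted p = 8.19e-05) and had a value of 0.11 under tiamulin (adjusted p = 0.191), where it was called with GC and length offsets, with offsets and block, and without tiamulin 2. Lpin1 rose under tiamulin at 0.48 (adjusted p = 0.000715) and had a value of -0.09 under lefamulin (adjusted p = 0.477 by edgeR). Tested directly, Acsl3 was lower and Lpin1 higher under tiamulin than under lefamulin, at -0.34 and 0.57 (adjusted p = 0.00323 and 0.00107 by edgeR). In the other lists, Insig1, Prkag1, Me2, Elovl2 and Cyb5b were lower under tiamulin by the same test. Their adjusted p values were 0.0486, 0.0289, 0.023, 0.024 and 0.024 by edgeR. Calls fell to as low as 0 in these other lists when 1 library was left out. Between the drugs, 8.7% of regulators, 5.26% of supply genes, 11.8% of elongation genes and 9.09% of this list were called. The share of all tested genes was 4.9%. The other calls of this list against the controls were on acyltransferases of phospholipid and triglyceride synthesis and on an acyl-CoA synthetase. Lclat1 rose under lefamulin at 0.25 (adjusted p = 0.0426), a call kept in 1 of 9 leave-one-library-out fits, that without tiamulin 2 (adjusted p up to 0.153), and its value under tiamulin was 0.23 (adjusted p = 0.0536). Agpat1 rose under tiamulin at 0.38 (adjusted p = 0.0165), became 0.22 without tiamulin 2, and lost the call without control 2 or control 3 (adjusted p up to 0.0789). Gpam, the mitochondrial acyltransferase that starts glycerolipid synthesis, fell under tiamulin at -0.36 (adjusted p = 0.00329 by edgeR), a call kept in all 19 alternatives. Its value under lefamulin was -0.22 (adjusted p = 0.0605), and -0.28 to -0.14 when a library was left out. It was called under lefamulin in 7 of 19. Acsl1, an acyl-CoA synthetase, fell under tiamulin at -0.24 (adjusted p = 0.0141) and lost the call without control 3 (adjusted p = 0.0831). Without tiamulin 2, the calls in this list rose from 4 to 7 under lefamulin and from 6 to 12 under tiamulin.

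The separate mitochondrial pathway of fatty acid synthesis, which makes the precursor of lipoic acid, gave 0 calls among 9 tested genes under either drug by edgeR and by DESeq2, beside 13.1% and 16.4% of all tested genes. At an unadjusted p below 0.05, 0 of the 9 passed under lefamulin and 1 under tiamulin, and 1 was called under tiamulin without tiamulin 2. With GC and length offsets edgeR called 1 gene of this list under each drug.

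**Figure D5:**
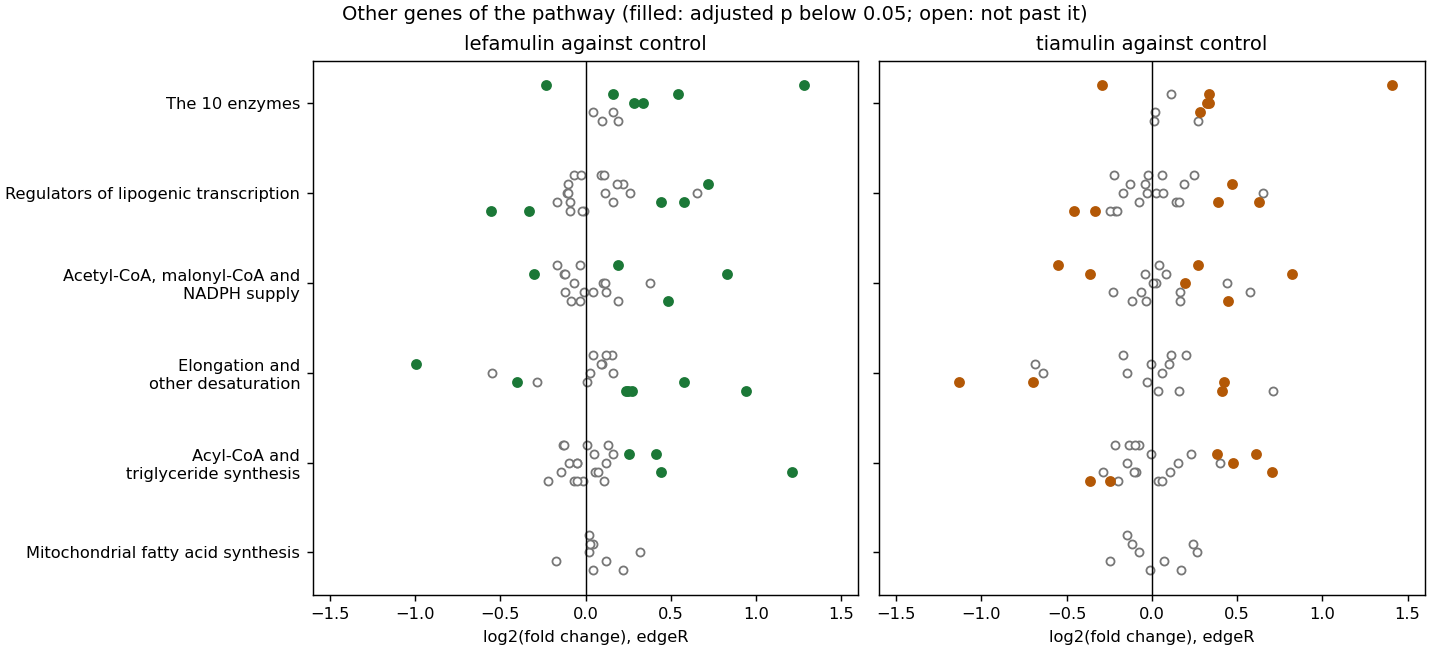
Each point is 1 tested gene, placed by its log2(fold change) against the controls under lefamulin (left) and tiamulin (right), with a row for the 10 enzymes and for each list of other genes (filled, adjusted p below 0.05 by edgeR). The filled points lie on both sides of 0 in each row, except in acyl-CoA and triglyceride synthesis under lefamulin, where they lie above 0, and in the mitochondrial row, which has none.

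Across the 9 libraries, the genes whose log2 CPM (counts per unit of library total) was most like that of Fasn included Tmem104 and Stk10, with Pearson's r of 0.971 and 0.965, and their GC contents were 57.7% and 54.9%. Those most like Scd1 were Tollip, Klf7 and Tsc22d3, with r of 0.994, 0.993 and 0.989 and GC contents of 50.1%, 45.3% and 48.3%. The libraries share their groups and depth, so these values are descriptions. Among the members, the highest r was 0.967, between Scd1 and Me1, and the lowest -0.925, between Scd2 and Acss2.

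The genes lie on 5 chromosomes. As the authors deposited them, the positions were chromosome 11 from 120696672 to 120715373 for Fasn, from 84020498 to 84292477 for Acaca and from 100367179 to 100418826 for Acly. Fads1 (10160252 to 10174241), Fads2 (10040129 to 10079110), Scd1 (44382894 to 44396318) and Scd2 (44282113 to 44295303) lie on chromosome 19, the first and the last pair each on opposite strands. Elovl6 lies on chromosome 3 from 129326004 to 129432144, Me1 on chromosome 9 from 86463424 to 86578006 and Acss2 on chromosome 2 from 155359868 to 155427644. The submitters' processing notes name mm10, but 0 of the 10 deposited positions match GRCm38, the same assembly. Only 2.76% of 52036 nuclear genes do, so these positions are not to be read on the build of the sequences above.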

How the data were processed

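Libraries of 3 control, 3 lefamulin-treated and 3 tiamulin-treated Hepa1-6 samples were grouped by the sample labels. The authors deposited a table of raw counts of reads for each gene, and a table of FPKM values in which each count is scaled by gene length and library total. The submitters' processing notes name CASAVA 1.8, fastp, HISAT2 2.0.5, featureCounts 1.5.0-p3, DESeq2 1.20.0 and mm10, and the strand setting is not given in the sources used here. Multi-mapping reads of paralogs and pseudogenes could be split or lost in such counting. Total counts were 15568887 to 18008105 per library, which leaves counting error small for all members but Acss2.

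The quasi-likelihood test of edgeR 4.0.16 (R 4.3.3) was applied after TMM normalization and filterByExpr, with robust dispersion, to all 9 libraries at once, with a term for group alone. Adjusted p values are Benjamini-Hochberg over 14510 tested genes, with a call below 0.05 and a DEG also above an absolute log2(fold change) of 1. The alternatives were DESeq2 1.42.0 and its size factors, no filter, at least 10 counts in every library, a fit of only the 2 groups in question, a block for replicate number, limma 3.58.1 on log2(FPKM + 1) and log2(FPKM + 0.1) for genes above 1 FPKM in at least 3 libraries, offsets for GC content and gene length with and without the block, and leaving out each library. GC content came from the longest GENCODE M21 transcript of 14242 tested genes. Start regions came from RefSeq.

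The members and the gene lists were chosen with earlier results of these data known. Named genes are the 10 members, Srebf1, Srebf2, Insig1, Mlxipl, Nr1h3 and Slc25a1, up to 4 further genes per list with the largest change among those called, members of counts of 5 or fewer, and the 3 genes most correlated with Fasn and with Scd1, except for a gene that is not reported here. Ggt7, Acss2os, Gm7049 and Gm5182 are named for sequence they share with members, and Prkaa1 is named beside Prkaa2 as the other catalytic subunit of AMPK. The replicate numbers of the labels were followed. Pairs of libraries within a group differed beyond counting noise, which does not show that they were separate cultures.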

Additional observations from a re-analysis of the deposited data

Results flagged for a closer look

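Scd1 was the 1 enzyme whose change differed between the drugs by a direct test. Its log2(fold change) under tiamulin against lefamulin was -0.21 (adjusted p = 0.024 by edgeR, SE 0.05), and the 3 tiamulin libraries (114 to 120.0 FPKM) lay below the 3 lefamulin libraries (134.7 to 135.8 FPKM) and above the 3 controls (91.0 to 95.3 FPKM). Over 19 alternative fits the adjusted p value ranged from 0.000311 to 0.109, and the call was lost in 7 of them.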

How the results depend on the processing

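Over 19 alternative fits of the 10 enzymes in 3 comparisons, 524 of 570 values kept their direction and their side of the threshold, 17 lost a call, 11 gained a call and 18 changed sign, none of these 18 called. The calls on Acss2, Scd1, Scd2 and Fads2 under both drugs and on Acly and Fads1 under tiamulin were kept in all 19. Leaving out a library moved the members called higher under lefamulin from 5 to between 3 (without lefamulin 3) and 6, and the members called, and called lower, under tiamulin against lefamulin from 1 to between 0 and 1. Both also became 0 when the 2 groups were compared alone (Scd1 -0.21, adjusted p = 0.0799) and with the replicate block (Scd1 -0.21, adjusted p = 0.0824). Same-numbered libraries had correlations of -0.51 to 0.04, so the numbers were not taken as pairing. The block also took the call from Me1 under lefamulin (0.16, adjusted p = 0.1), as did no filter on low counts (adjusted p = 0.11), and it changed no other call of a member. With GC and length offsets, Fads1 under lefamulin (0.15, adjusted p = 0.00551) and Me1 under tiamulin (0.14, adjusted p = 0.00672) passed, beside Fasn. Among the other named genes, calls were also lost with the block for Cs, Hacd4 and Fads3 under lefamulin and Pparg, Sirt1 and Dlat under tiamulin, with both limma fits for Mbtps1, Hacd1 and Fads3 under lefamulin and Srebf1 and Sirt1 under tiamulin, with the 2 groups alone for Srebf1, Pparg, Sirt1 and Dlat under tiamulin, with DESeq2 for Hacd4 under lefamulin and Pparg under tiamulin, with its size factors for Fads3 under lefamulin, and with no filter for Hacd4 under lefamulin and Dlat under tiamulin. Lclat1 under lefamulin lost its call with DESeq2, no filter and the block, and Agpat1 under tiamulin with the 2 groups alone and both limma fits. Calls were gained with offsets by Mbtps1, Hacd1, Acsl3, Elovl1 and Lclat1 under tiamulin and by Agpat1 and Gpam under lefamulin, with offsets and block by these except Elovl1, and without tiamulin 2 by these except Elovl1 and Hacd1. Further gains were by Mbtps1 under tiamulin with no filter, by Lclat1 under tiamulin with both limma fits, by Agpat1 under lefamulin with the 2 groups alone, and by Gpam under lefamulin with DESeq2, no filter, the 2 groups alone and without lefamulin 3.

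Genes called under lefamulin, 1900, became 3510 for 2 groups alone, 3436 with GC and length offsets, 3132 with offsets and block, and 993 to 3708 when a library was left out (without control 3 and without tiamulin 2). Under tiamulin, 2383 became 3886 with offsets, 3588 with offsets and block, and 1462 to 3433 when a library was left out (without control 3 and without tiamulin 2). Between the drugs, 711 became 1073 with DESeq2, 1271 with no filter, 280 for 2 groups alone, 263 with the block, 443 and 444 with limma on log2(FPKM + 1) and log2(FPKM + 0.1), 1908 with offsets, 1602 with offsets and block, and 204 to 1309 when a library was left out (without lefamulin 3 and without tiamulin 2). The causes were not tested.

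Sign changes were of values that were not called. With offsets, and with offsets and block, the log2(fold change) became -0.0128 and -0.0127 for Acaca under tiamulin, 0.0012 and 0.0054 for Nr1h3 and 0.0048 and 0.0033 for Acsl1 under lefamulin, and, between the drugs, -0.0880 and -0.0879 for Fasn and -0.0366 and -0.0368 for Acly. Acly between the drugs was -0.0007 with at least 10 counts and -0.0009 with limma at both pseudocounts. When a library was left out, values ranged from -0.0167 to 0.0670 for Acaca and from -0.0697 to 0.0910 for Elovl6 under tiamulin, from -0.3817 to 0.0587 for Mlxipl and from -0.0103 to 0.2166 for Srebf2 under tiamulin, and from -0.0577 to 0.0410 for Nr1h3, from -0.0491 to 0.0203 for Acsl1 and from -0.0972 to 0.0780 for Sirt1 under lefamulin. Between the drugs they ranged from -0.0595 to 0.0243 for Acaca, -0.0905 to 0.1652 for Fasn, -0.0946 to 0.0665 for Acly and -0.0149 to 0.0698 for Fads2. The calls on Me1 and Fads1 under lefamulin changed with the fit. Over the 19 alternatives their adjusted p values ranged from 0.00187 to 0.153 for Me1 and from 0.00504 to 0.242 for Fads1.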
